A study of Mus musculus with 27 samples.

Results

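Joins between the Sμ side of the immunoglobulin heavy chain (Igh) locus and the stretch that holds the Cγ1, Cγ2b, Cγ2a and Cε constant genes were examined in the mouse B-cell line CH12F3, which upon stimulation changes its antibody class, IgM to IgA. The members were all sequenced junctions on chromosome 12 at 114509501 to 114599499 (mm9), a 90 kb span between Sα, the usual partner in these cells, and the bait. They numbered 1668 of 193201 junctions, of which 43 came from PAXX-/- cells, 261 from XLF-/- cells, 440 from XLF-/-PAXX-/- cells, 871 from Ligase4-/- cells and 53 from WT cells. Positions of single genes in mm9 were not used here, so stretches of the span are given by position and not by gene. In RefSeq's GRCm38 annotation, read toward higher coordinates, the genes of this stretch follow one another as Ighe, Ighg2c, Ighg2b and Ighg1, between Igha on the low side and Ighg3, Ighd and Ighm on the high side.

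The junctions were read by LAM-HTGTS, a linear amplification form of high-throughput translocation sequencing that primes in a fixed bait near the Iμ promoter and reads into whatever DNA, the prey, has been joined to it. Every clone was stimulated for 72 h with IL-4, anti-CD40 and TGFβ, and 3 libraries were made of each of 9 clones. PAXX-/-, XLF-/-, XLF-/-PAXX-/- and Ligase4-/- were represented by 2 clones each, and WT by the parental line. Both XLF-/-PAXX-/- clones descend from a single PAXX-/- clone, and the second Ligase4-/- clone came from another laboratory. The libraries are biological replicates per the labels, and the tables hold no measure of the deleted genes with which to check them.

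In class switch recombination, the enzyme AID acts on repetitive switch regions that lie before each constant gene, and double-strand breaks in Sμ and in a downstream switch region are joined so that the DNA between them is lost. The AGCT motif is a preferred target of AID, and mammalian switch regions are rich in G on the nontemplate strand. The breaks are mostly closed by classical end joining, in which DNA ligase 4 seals the ends and XLF and PAXX are accessory factors. Joins made without it tend to use short stretches of bases present at both ends, called microhomology.

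The structure of the joins is shown first in reads from the densest 5 kb of the span, chromosome 12 at 114549501 to 114554500 on mm9. The read with the longest microhomology of each genotype there, among joins that keep the order of the chromosome, is printed below 5′ to 3′, with the bases shared by bait and prey in capitals, bait before them and prey after. Each name gives the mm9 coordinates and strand of the prey alignment. Reads were placed by their junction, and the Ligase4-/- alignment extends to positions below this 5 kb.
PAXX-/-, chr12:114551246-114551570, minus strand, 5 shared bases: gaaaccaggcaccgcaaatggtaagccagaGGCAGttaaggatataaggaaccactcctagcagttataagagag
XLF-/-, chr12:114550706-114550767, minus strand, 6 shared bases: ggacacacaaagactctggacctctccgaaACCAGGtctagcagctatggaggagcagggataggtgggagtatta
XLF-/-PAXX-/-, chr12:114551395-114551679, minus strand, 8 shared bases: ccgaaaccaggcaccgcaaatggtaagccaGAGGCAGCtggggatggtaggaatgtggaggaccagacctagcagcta
Ligase4-/-, chr12:114549174-114550365, minus strand, 9 shared bases: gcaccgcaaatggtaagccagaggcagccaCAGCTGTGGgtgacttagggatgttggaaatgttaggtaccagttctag
WT, chr12:114551470-114551619, minus strand, 5 shared bases: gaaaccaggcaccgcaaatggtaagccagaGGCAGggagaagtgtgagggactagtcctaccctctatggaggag
The number of reads searched differed between genotypes, and a longer maximum is more likely where more junctions were read.

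Direct joins have neither a shared nor an added base. The pair printed next are the direct joins with the lowest coordinate in the same 5 kb for XLF-/- and WT, with the last bait base and the first prey base in capitals. The XLF-/- read runs into the prey on the opposite strand, which makes it an inversional join.
XLF-/-, chr12:114551791-114551947, plus strand: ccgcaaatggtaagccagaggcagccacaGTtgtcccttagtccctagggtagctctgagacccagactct
WT, chr12:114551691-114551774, minus strand: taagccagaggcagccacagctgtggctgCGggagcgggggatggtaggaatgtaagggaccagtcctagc
Insertions place bases between the bait and prey alignments. The longest insertions of at most 20 bases in the span are printed for XLF-/-PAXX-/- and WT, with the inserted bases in capitals.
XLF-/-PAXX-/-, chr12:114551255-114551461, minus strand, 19 inserted bases: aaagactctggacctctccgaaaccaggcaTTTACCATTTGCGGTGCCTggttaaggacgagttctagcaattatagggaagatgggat
WT, chr12:114544577-114544819, minus strand, 20 inserted bases: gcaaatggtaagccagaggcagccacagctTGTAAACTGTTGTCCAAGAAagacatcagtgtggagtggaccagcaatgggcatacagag
Of the 19 bases in the XLF-/-PAXX-/- read, 18 in a row equalled the reverse complement of the bait. The longest run that the WT insertion shared with the bait was 11 bases in the same direction and 5 in reverse.

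Joins into the span made up a larger share of junctions than in WT when XLF, XLF with PAXX, or DNA ligase 4 was missing, and a smaller share when only PAXX was missing. The share is a percentage of the junctions that lay outside the bait window, which extended 10 kb beyond the bait alignments in both directions. It is a relative measure that also moves with the number of junctions elsewhere, and the number of joins per cell was not measured. The share in the 3 libraries was 0.0231%, 0.157% and 0.248% in PAXX-/- clone 1 and 0.301%, 0.189% and 0.102% in clone 2. For XLF-/- the share was 1.09%, 1.25% and 0.792% in clone 1, and 0.779%, 1.15% and 1.11% in clone 2. All 12 of these libraries fell on the side of WT that their genotype mean did. XLF-/-PAXX-/- clone 1 had 1.13%, 1.06% and 1.14%, and clone 2 had 1.28%, 1.67% and 1.56%. Ligase4-/- clone 1 had 1.70%, 2.51% and 2.41%, and clone 2 had 1.85%, 1.34% and 1.63%. The 3 WT libraries had 0.629%, 0.669% and 0.574%, below each library that lacked XLF or DNA ligase 4 and above each PAXX-/- library.

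**Figure D1:**
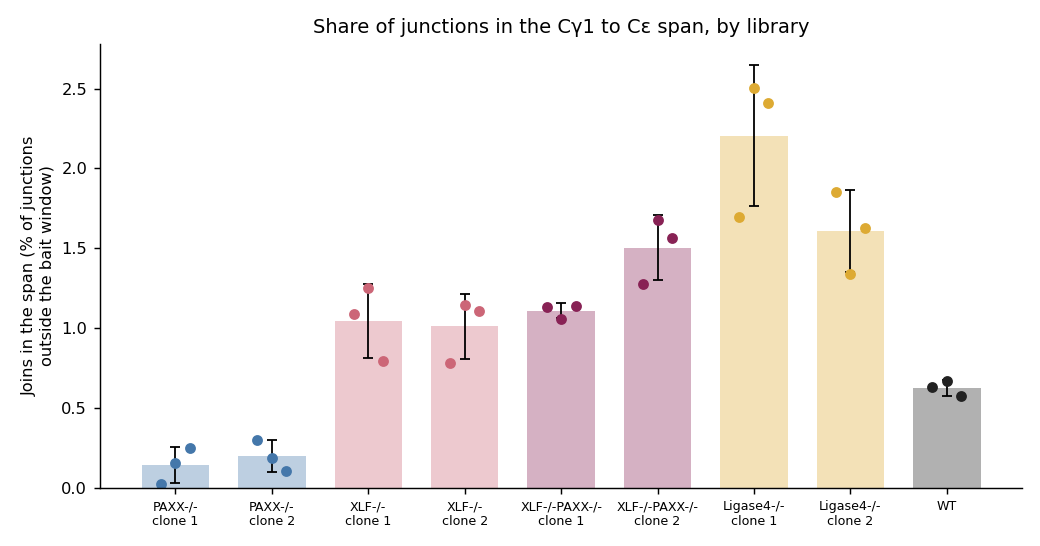
Share of junctions outside the bait window that lie in the span (%), by clone. Points are the 3 libraries of a clone, bars their mean and error bars the SD. The 6 PAXX-/- libraries sit below the 3 WT libraries, and the 18 libraries lacking XLF or DNA ligase 4 sit above them.

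Of the sum of squares between the 9 clones, 92.8% lay between genotypes, which passed the exact permutation test (p = 0.00529, adjusted p = 0.0317 over 6 genotype tests). The call was lost without XLF-/- clone 1 library 3 (92.5%, adjusted p = 0.0508, exact permutation), XLF-/-PAXX-/- clone 2 library 1 (91.6%, adjusted p = 0.0698), Ligase4-/- clone 1 library 1 (89.5%, adjusted p = 0.0698) or Ligase4-/- clone 2 library 1 (90.2%, adjusted p = 0.0889). It was also lost without any 1 whole clone other than Ligase4-/- clone 2, at 90.3% to 96.2%, and with 5 kb trimmed from each end of the span (84.7%, exact permutation adjusted p = 0.152).

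By library, PAXX-/- averaged 0.170% ± 0.0999 and WT 0.624% ± 0.0478 (SD, n = 6 and 3), a difference of -0.454 percentage points (95% interval -0.606 to -0.313, exact permutation adjusted p = 0.0208). XLF-/- averaged 1.03% ± 0.196 (SD, n = 6) and was 0.403 points above WT (0.110 to 0.679, exact permutation adjusted p = 0.0417). XLF-/-PAXX-/- averaged 1.31% ± 0.254 (SD, n = 6), 0.683 points above WT (0.309 to 1.10, exact permutation adjusted p = 0.0208). In these comparisons PAXX-/- stood at 0.272 times the WT share, XLF-/- at 1.65 times and XLF-/-PAXX-/- at 2.09 times. Ligase4-/- averaged 1.91% ± 0.460 (SD, n = 6), 1.28 points above WT (0.672 to 1.93, exact permutation adjusted p = 0.0208) and 3.05 times its share. The smallest p that 6 against 3 libraries allow is 0.0119 in an exact permutation, and p-values were adjusted over 7 pairs of genotypes. These p-values measure the spread between libraries, and WT was a single line. WT, XLF-/-PAXX-/- and Ligase4-/- shared no sequencing run with another genotype, and in any comparison with them genotype and run cannot be told apart. With the end 5 kb trimmed on both sides, XLF-/- minus WT was 0.199, XLF-/-PAXX-/- minus WT 0.383 and Ligase4-/- minus WT 0.835, and none of these passed (exact permutation adjusted p = 0.0694 each). The PAXX-/- difference passed with trimmed ends. Without a whole mutant clone only 3 libraries face 3, the exact p cannot go below 0.1, and no difference from WT passed. The values were then -0.482 and -0.427 for PAXX-/-, 0.387 and 0.420 for XLF-/-, 0.485 and 0.880 for XLF-/-PAXX-/-, and 0.983 and 1.58 for Ligase4-/-.

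Another 3 pairs were compared among the mutants, again by library. Their p-values and intervals measure the spread between libraries and take no account of which clone a library came from. XLF-/- exceeded PAXX-/- by 0.857 points (0.656 to 1.06, exact permutation adjusted p = 0.0152, 6 libraries each). These 2 genotypes shared both of their sequencing runs, and XLF-/- minus PAXX-/- was 0.771 within one (2 libraries each) and 0.901 within the other (4 libraries each). XLF-/-PAXX-/- minus XLF-/- was 0.279 points and did not pass (-0.0177 to 0.573, exact permutation adjusted p = 0.0736). Without XLF-/-PAXX-/- clone 2 this difference was 0.0816. Without XLF-/-PAXX-/- clone 1 it was 0.477 and passed (exact permutation adjusted p = 0.0208), and without library 2 of that clone it was 0.329 and passed (adjusted p = 0.0411). XLF-/-PAXX-/- was 0.599 points below Ligase4-/-, a difference of -0.599 (-1.09 to -0.117, exact permutation adjusted p = 0.0212). This difference no longer passed without clone 1 (-0.401) or clone 2 (-0.797) of XLF-/-PAXX-/-, without Ligase4-/- clone 1 (-0.300), and with trimmed ends (-0.452, exact permutation adjusted p = 0.0694). Loss of PAXX went with a difference of -0.454 points where XLF was present and of 0.279 points where it was absent. Whether these differ was not tested.

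Set against Sα in place of all junctions outside the bait window, the order of the genotypes was the same. For every 1000 junctions in the Sα window, the 20 kb at 114489501 to 114509500, the span held 2.61 ± 1.87 in PAXX-/-, 17.0 ± 3.30 in XLF-/-, 20.0 ± 3.38 in XLF-/-PAXX-/-, 34.8 ± 6.48 in Ligase4-/- and 8.80 ± 0.617 in WT (SD over 6, 6, 6, 6 and 3 libraries).

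Within the span the joins were concentrated in a few places. Numbered upwards from the Sα side, the 18 bins of 5 kb held between 9 and 368 junctions, and the bins with the highest mean share over clones were bin 9 (368 junctions, 114549501 to 114554500), bin 1 (205, 114509501 to 114514500), bin 8 (220, 114544501 to 114549500) and bin 18 (198, 114594501 to 114599499). Bins 8 and 9 adjoin one another in the middle of the span, and bins 1 and 18 are its ends. The middle pair, set apart after the profile was seen, held 30 of 43 PAXX-/- joins (69.8%), 70 of 261 XLF-/- joins (26.8%), 134 of 440 XLF-/-PAXX-/- joins (30.5%), 323 of 871 Ligase4-/- joins (37.1%) and 31 of 53 WT joins (58.5%). In WT and PAXX-/- most joins into the span therefore lay in these 10 kb, and in the other genotypes most lay outside them.

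**Figure D2:**
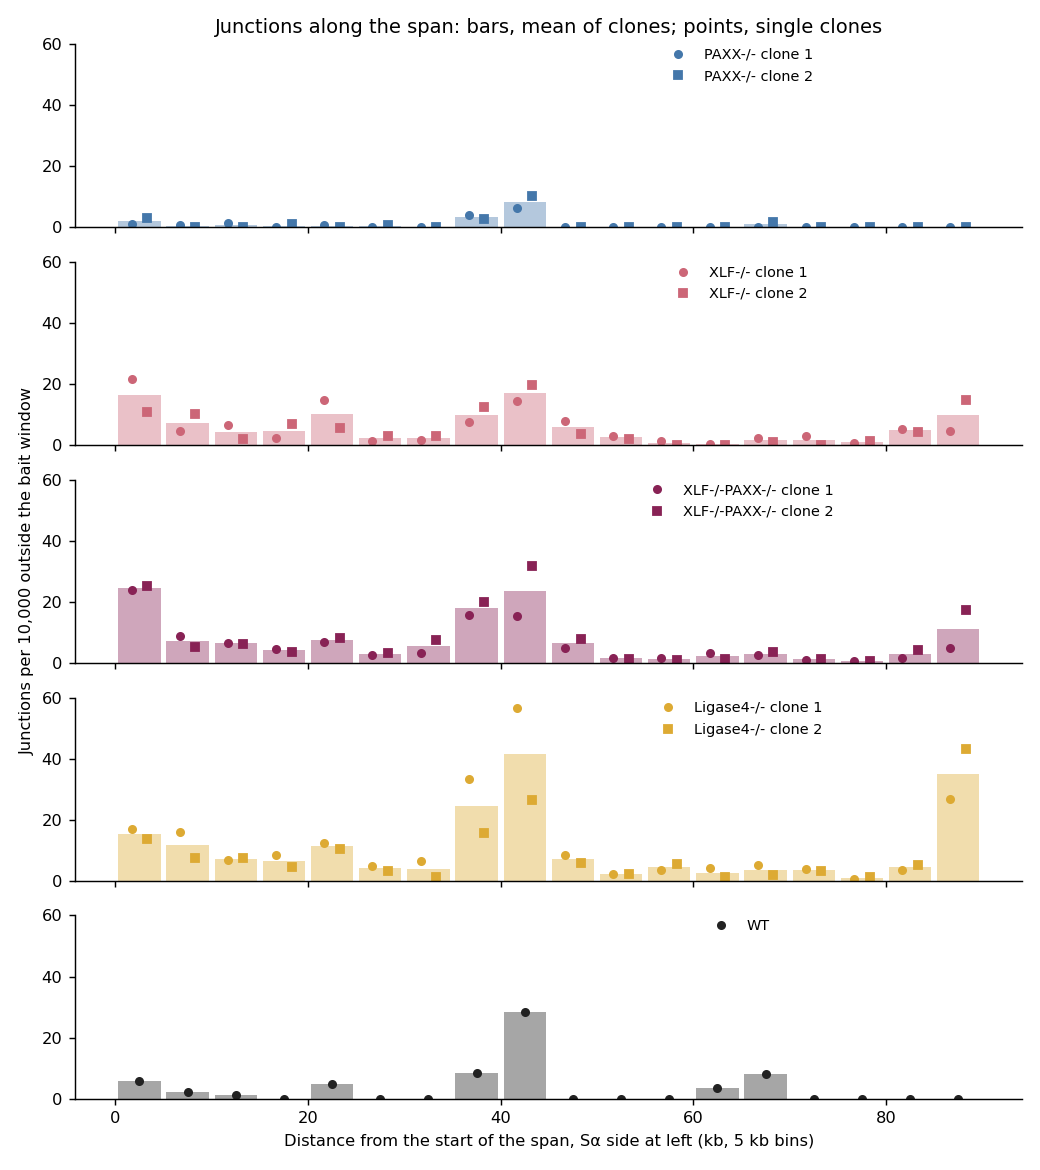
Junctions per 10000 outside the bait window in each 5 kb bin, plotted against distance from the start of the span on the Sα side (kb). Bars are the mean of a genotype's clones and points single clones. Bins 8 and 9, at 35 to 45 kb, carry most joins in PAXX-/- and WT, and the last bin is empty in both and tall in Ligase4-/-.

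Bin 9 held 6.46 and 10.2 joins per 10000 junctions outside the bait window in the PAXX-/- clones, 14.5 and 19.6 for XLF-/-, 15.6 and 31.9 for XLF-/-PAXX-/-, 56.5 and 26.4 for Ligase4-/-, and 28.5 in WT. Both PAXX-/- clones were below WT there, while the clones of each other genotype lay below it or on both sides of it. Bin 8 held 3.96 and 2.75 in PAXX-/-, 7.48 and 12.4 for XLF-/-, 15.8 and 20.0 for XLF-/-PAXX-/-, 33.4 and 15.7 for Ligase4-/-, and 8.37 in WT.

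The end bins held few joins in PAXX-/- and WT. Bin 1, next to the Sα window, held 1.27 and 3.01 per 10000 in PAXX-/-, 21.8 and 11.0 for XLF-/-, 24.0 and 25.3 for XLF-/-PAXX-/-, 16.9 and 13.9 for Ligase4-/-, and 5.79 in WT. Bin 18 held none in either PAXX-/- clone, 4.79 and 14.8 for XLF-/-, 5.10 and 17.2 for XLF-/-PAXX-/-, 26.9 and 43.2 for Ligase4-/-, and none in WT. A count of 0 allows up to 1.17 per 10000 in PAXX-/- (of 25638 junctions) and up to 3.52 in WT (of 8514). The values of all 6 clones lacking XLF or DNA ligase 4 were above both limits. The lowest of them rest on 8 joins in XLF-/- clone 1 and 9 in XLF-/-PAXX-/- clone 1, and their own counting error was not set against the limits. These limits, like the intervals of single shares, cover counting error only. The neighbouring 5 kb outside the span are far denser in some genotypes. Below the span they held 4 junctions in PAXX-/-, 326 in XLF-/-, 488 in XLF-/-PAXX-/-, 367 in Ligase4-/- and 1 in WT, and above it 62, 55, 138, 829 and 62. Trimming the end bins removed calls, as given above.

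No bin of the span passed the test of the genotypes one by one. Of 40 bins tested between 100 kb below the span and the bait window, 1 was called (2.5%), outside the span at 114629501 to 114634500. Of the 17 tested bins of the span, 0 were called by the exact permutation test after Benjamini-Hochberg adjustment, and 2 had an unadjusted p under 0.05, bin 1 (exact permutation p = 0.0339, adjusted p = 0.133, 90.1% of the sum of squares) and bin 11 (p = 0.0159, adjusted p = 0.0907, 93.7%). The values were 66.7% for bin 9, 75.1% for bin 8 and 85.2% for bin 18 (exact permutation adjusted p = 0.306, 0.199 and 0.133). Bin 16, with 9 junctions, fell under the minimum of 20 and was not tested. Without reads that had unaligned gaps over 20 bases, 1 bin of the span was called, as it was without library 2 or 3 of either XLF-/- clone, and 2 were called without XLF-/- clone 2.

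Clones with more joins had more occupied bins. PAXX-/- joins occupied 6 of 18 bins in each clone, XLF-/- joins 18 and 15, XLF-/-PAXX-/- joins 18 in each, Ligase4-/- joins 18 in each, and WT joins 8, with 21 to 630 joins per clone. Exact positions seldom recurred. The 1668 joins fell on 1608 combinations of position and strand, of which 42 were found in 2 libraries and 1 in 3, and none in 4 or more. The one found in 3 libraries, of 3 clones, was at 114598120 on the minus strand. Only 2 lines matched another of their library in junction, strand and bait end.

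A deletional join keeps the order of the chromosome and removes the DNA between bait and prey, while an inversional join turns the prey round. In the span, 1180 joins were deletional and 488 inversional. The deletional share was 77.3% and 85.7% in the PAXX-/- clones, 66.0% and 73.0% for XLF-/-, 67.0% and 69.5% for XLF-/-PAXX-/-, 68.9% and 75.9% for Ligase4-/-, and 88.7% in WT. The 6 clones lacking XLF or DNA ligase 4 were all below PAXX-/- and WT, but the test of the genotypes did not pass (exact permutation p = 0.107, adjusted p = 0.214, with 83.2% of the sum of squares). Joins into the span were less often deletional than Sα joins of the same clone in 9 of 9 clones. The mean was 74.7% in the span and 88.8% at Sα, a difference of -14.1 points (95% interval -17.3 to -10.7, exact sign-flip permutation adjusted p = 0.00781 over 10 tests). On other chromosomes deletional and inversional joins were close to equal, at 49.0%, and the span exceeded them by 25.7 points (19.2 to 32.7, 9 of 9 clones, exact permutation adjusted p = 0.00781).

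**Figure D3:**
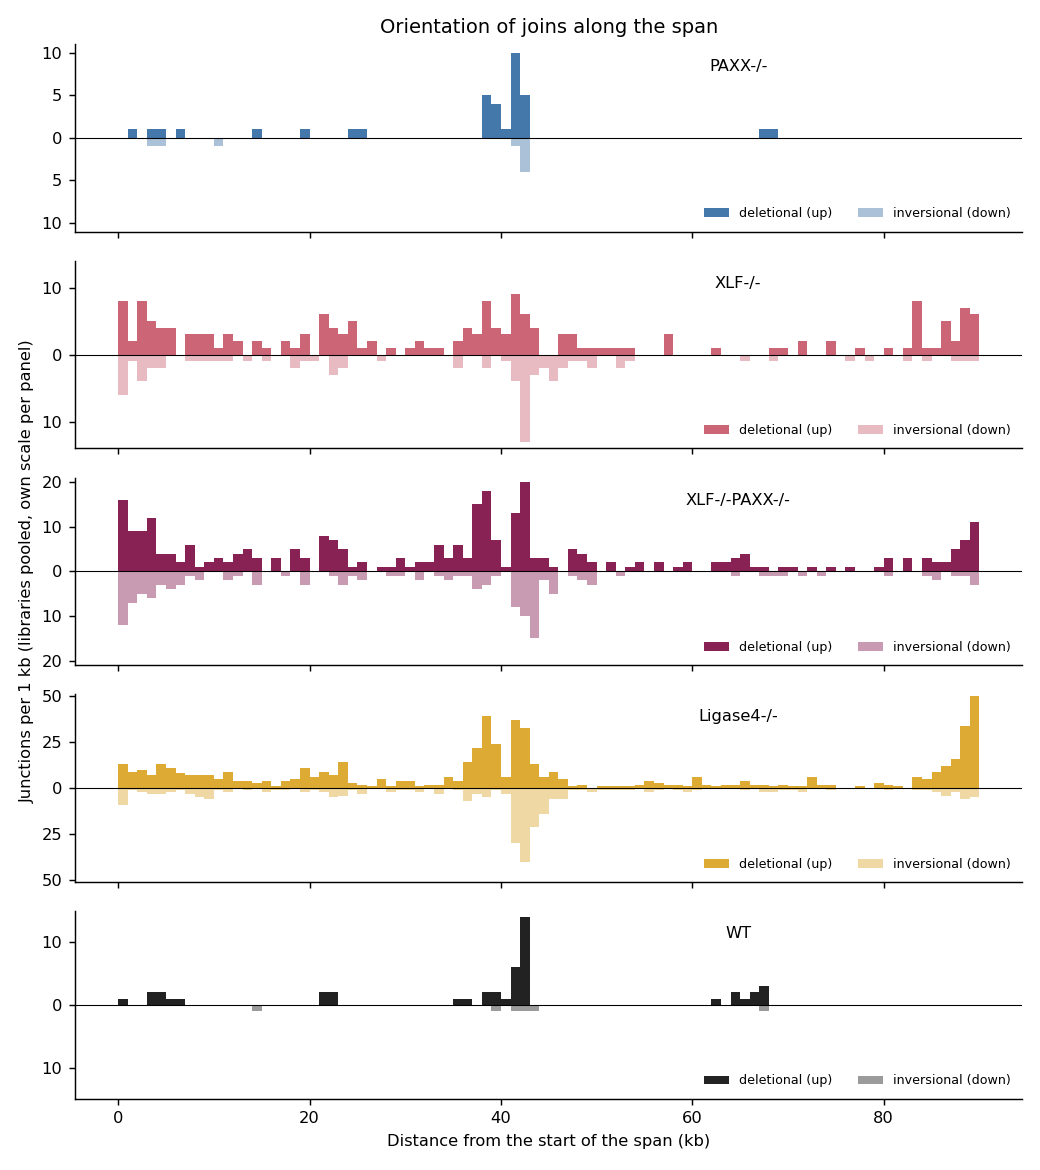
Deletional joins (upwards) and inversional joins (downwards) per 1 kb along the span, libraries of a genotype pooled, each panel on its own scale; the horizontal axis is the distance from the Sα side of the span (kb). The 38 to 40 kb stretch is mostly deletional in every genotype, and inversional joins peak within 41 to 44 kb in the 3 genotypes lacking XLF or DNA ligase 4.

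The inversional joins were not spread evenly. In bin 9 there were 174 among 368 joins, and in bin 10 above it 37 among 74. Bin 8, below it, had 32 of 220, bin 1 had 68 of 205 and bin 18 had 29 of 198. The inversional joins of bin 10 were 10 of 18 in XLF-/-, 11 of 23 in XLF-/-PAXX-/- and 16 of 33 in Ligase4-/-, and PAXX-/- and WT had no join there. By genotype, bin 9 had 5 inversional of 21 joins in PAXX-/-, 23 of 45 (51.1%) in XLF-/-, 35 of 75 (46.7%) in XLF-/-PAXX-/-, 108 of 203 (53.2%) in Ligase4-/-, and 3 of 24 (12.5%) in WT. Exact 95% binomial intervals of the pooled counts were 8.22% to 47.2% in PAXX-/-, 35.8% to 66.3% in XLF-/-, 35.1% to 58.6% in XLF-/-PAXX-/-, 46.1% to 60.2% in Ligase4-/- and 2.66% to 32.4% in WT, and that of PAXX-/- overlaps all the others. They cover counting error only and hold no spread between clones or libraries. Neither overlap nor its lack is therefore a test between genotypes. Orientation changed over a few kb. Of the Ligase4-/- joins at 114547501 to 114548500, 39 were deletional and 5 inversional, and at 114551501 to 114552500, 33 were deletional and 40 inversional. In WT that second kilobase held 14 deletional joins and 1 inversional. Orientation by bin was looked at after the profile was seen and was not tested between genotypes.

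Microhomology was the usual structure of joins into the span. Of 1668 joins, 1285 had microhomology, 82 were direct and 301 had an insertion. The direct share was 9.09% (2 of 22) and 0% (0 of 21) in the PAXX-/- clones, 4.0% and 3.60% for XLF-/-, 4.57% and 4.94% for XLF-/-PAXX-/-, 3.97% and 5.39% for Ligase4-/-, and 20.8% (11 of 53) in WT. The WT value stood highest, with an exact 95% binomial interval of 10.8% to 34.1% that overlaps the 1.12% to 29.2% of PAXX-/- clone 1. Between genotypes lay 84.8% of the sum of squares, which did not pass (exact permutation p = 0.103, adjusted p = 0.214). This value was 38.9% with each clone taken as the mean of its libraries, 27.7% without WT library 1 and 2.63% without WT, none of which passed.

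Microhomology made up 86.4% and 57.1% of joins in PAXX-/-, 80.0% and 82.0% for XLF-/-, 76.1% and 79.8% for XLF-/-PAXX-/-, 76.7% and 76.8% for Ligase4-/-, and 58.5% in WT (exact permutation p = 0.463, adjusted p = 0.556, with 47.2% of the sum of squares). The 2 PAXX-/- clones, with 22 and 21 joins, lay at opposite ends of that range. The sum of squares between genotypes was 97.0% with each clone taken as the mean of its libraries (exact permutation p = 0.0180, adjusted p = 0.0540), 98.7% without PAXX-/- clone 1, 98.1% without PAXX-/- clone 2, 31.4% without WT library 1, 16.9% without WT, 30.3% with trimmed ends and 89.4% with insertions left out of the denominator, and none of these passed. Counting only joins with at least 2 shared bases, the share was 50.0% and 42.9% in PAXX-/-, 72.0% and 73.0% for XLF-/-, 62.9% and 69.5% for XLF-/-PAXX-/-, 67.0% and 66.0% for Ligase4-/-, and 39.6% in WT. With this stricter count the genotypes accounted for 96.3% and passed (exact permutation p = 0.0106, adjusted p = 0.0317). A single shared base made up 11 of 31 microhomology joins in PAXX-/-, 22 of 211 in XLF-/-, 51 of 344 in XLF-/-PAXX-/-, 87 of 668 in Ligase4-/- and 10 of 31 in WT. Joins with 4 or more shared bases were 25.8% of microhomology joins in PAXX-/-, 37.0% in XLF-/-, 30.5% in XLF-/-PAXX-/-, 34.3% in Ligase4-/- and 16.1% in WT.

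**Figure D4:**
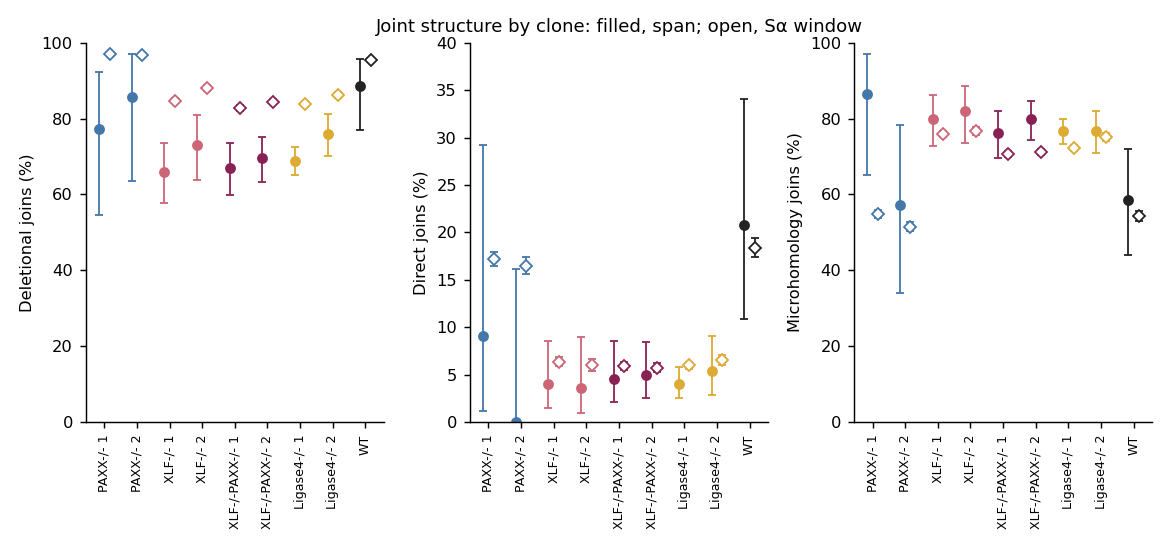
Deletional, direct and microhomology shares (%) by clone, in the span (filled circles) and in the Sα window (open diamonds); error bars are exact 95% binomial intervals of pooled counts. In every clone the deletional share is lower and the microhomology share higher in the span than at Sα.

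Mean microhomology length was 2.16 and 3.08 bases in the PAXX-/- clones, 3.13 and 3.39 for XLF-/-, 2.91 and 3.24 for XLF-/-PAXX-/-, 3.31 and 3.06 for Ligase4-/-, and 2.26 in WT, and did not pass between genotypes (exact permutation p = 0.225, adjusted p = 0.338, with 65.2% of the sum of squares). Insertions made up 4.55% and 42.9% of joins in the PAXX-/- clones, 14.4% to 19.4% by clone in the other mutants and 20.8% in WT (9.96% of the sum of squares, exact permutation p = 0.919). That sum of squares was 98.2% without PAXX-/- clone 1, 94.2% without PAXX-/- clone 2, 4.81% without PAXX-/- clone 1 library 3 and 5.53% with trimmed ends, and none of these passed. Among insertions of 2 to 20 bases, 3 of 7 in PAXX-/-, 3 of 28 in XLF-/-, 2 of 50 in XLF-/-PAXX-/-, 14 of 114 in Ligase4-/- and 3 of 6 in WT matched the bait sequence that would have followed in all but 1 base, and their part in the insertion share was not tested. By this count an insertion of 2 bases matches when only 1 of them agrees. Insertions of 2 bases numbered 3 in PAXX-/-, 9 in XLF-/-, 18 in XLF-/-PAXX-/-, 37 in Ligase4-/- and 0 in WT. How many matches would arise by chance was not worked out. Of 32 insertions of 10 to 20 bases in the span, 5 contained a run of at least 10 bases of the bait, and 2 a run of that length of its reverse complement, 1 in XLF-/-PAXX-/- and 1 in Ligase4-/-.

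Compared within clones, joins into the span used microhomology more often than Sα joins. The mean microhomology share was 74.8% in the span and 67.0% at Sα, a difference of 7.87 points (3.63 to 15.1, higher in 9 of 9 clones, exact sign-flip permutation adjusted p = 0.00781). It was 4.53 points with each clone taken as the mean of its libraries and 4.91 without PAXX-/- clone 1, and passed in both (exact permutation adjusted p = 0.00781 and 0.0156). Direct joins were 6.26% in the span and 9.84% at Sα (-3.58, -8.64 to -0.207, exact permutation adjusted p = 0.0439). The direct share was higher in the span in 1 of 9 clones, WT (20.8% in the span and 18.4% at Sα). Mean microhomology length was 2.95 bases in the span and 2.68 at Sα (0.267, 0.0317 to 0.493, higher in 7 of 9 clones, exact permutation adjusted p = 0.0439). The direct and length differences were unstable. Without PAXX-/- clone 2 they were -1.97 and 0.210, and with each clone taken as the mean of its libraries -0.520 and 0.246, none of which passed. The direct call was also lost without any other whole mutant clone (-3.93 to -3.02), and without PAXX-/- clone 1 library 3, XLF-/- clone 1 library 1, XLF-/-PAXX-/- clone 1 library 3, Ligase4-/- clone 1 library 2, Ligase4-/- clone 2 library 2 or WT library 2 or 3 (-3.53 to -2.71). The length call was also lost without either clone of XLF-/-, XLF-/-PAXX-/- or Ligase4-/- (0.238 to 0.294), with trimmed ends (0.197), and without PAXX-/- clone 1 library 3, XLF-/- clone 1 library 1, XLF-/-PAXX-/- clone 1 library 3, Ligase4-/- clone 2 library 2 or WT library 1 or 3 (0.243 to 0.265). The insertion share, 18.9% in the span and 23.2% at Sα, did not pass the test (-4.28, -11.3 to 2.13, exact permutation adjusted p = 0.188), and without PAXX-/- clone 1 it was -1.89 and did not pass, while without PAXX-/- clone 2 it was -6.18 and passed (exact permutation adjusted p = 0.0112).

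Against joins to other chromosomes, the microhomology share was 74.8% in the span and 55.0% there (19.8 points, 10.4 to 28.9, 9 of 9 clones, exact permutation adjusted p = 0.00781). Direct joins were 6.26% in the span and 15.3% there (-9.08, -13.1 to -4.27, exact permutation adjusted p = 0.0130). Here too the direct share was higher in the span in 1 of 9 clones, WT (20.8% in the span and 16.8% on other chromosomes). Shared stretches were shorter in the span, 2.95 bases against 4.10 (-1.15, -1.62 to -0.695, shorter in 9 of 9 clones, exact permutation adjusted p = 0.00781). Reads with unaligned gaps over 20 bases weighed on the microhomology value, which was 6.77 points without them and did not pass (exact permutation adjusted p = 0.117). The direct difference was -6.09 with clones taken as the mean of their libraries and did not pass. Insertions were 18.9% in the span and 29.6% on other chromosomes and did not pass the test (-10.7, -19.7 to -0.616, exact permutation adjusted p = 0.0521). This difference was 6.21, of the opposite sign and not called, without gaps over 20 bases. It was called without PAXX-/- clone 2 (-14.0), with repeated lines counted once (-10.7), and without PAXX-/- clone 2 library 1 or 3, XLF-/- clone 2 library 2 or 3, XLF-/-PAXX-/- clone 2 library 1 or 2, Ligase4-/- clone 1 library 3 or WT library 2 (-11.4 to -10.8).

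The shared words were mostly short. The most frequent was GC (83 joins, 6.46% of microhomology joins in the span and 6.21% at Sα). CAG was shared in 39 joins, 3.04% of microhomology joins in the span and 1.93% at Sα, and CCAG in 19, 1.48% in the span and 0.959% at Sα. These shares are given as a description.

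Prey sequence along the span is shown next, because the share of preys with AGCT varied between bins. For each of the 4 densest bins, 100 prey bases of a deletional join are printed 5′ to 3′ from the junction inwards, read on the minus strand of mm9, with every AGCT in capitals. Among the preys whose 100 bases lay wholly in the bin, each was the one with the median number of AGCT copies and the lowest coordinate.
Bin 1, chr12:114510128-114510227, XLF-/-PAXX-/-: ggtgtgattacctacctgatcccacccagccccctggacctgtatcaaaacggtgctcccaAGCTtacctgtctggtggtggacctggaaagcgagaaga
Bin 8, chr12:114545940-114546039, Ligase4-/-: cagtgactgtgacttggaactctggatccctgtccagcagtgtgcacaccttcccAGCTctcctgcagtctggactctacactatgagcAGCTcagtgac
Bin 9, chr12:114549956-114550055, XLF-/-: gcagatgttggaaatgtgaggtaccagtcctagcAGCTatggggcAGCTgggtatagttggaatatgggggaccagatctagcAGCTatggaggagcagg
Bin 18, chr12:114594577-114594676, Ligase4-/-: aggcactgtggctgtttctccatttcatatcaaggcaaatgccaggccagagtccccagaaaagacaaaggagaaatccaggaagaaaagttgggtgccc
The bin 9 prey carries 3 copies of AGCT and has 38% G, and the bin 8 prey carries 2 copies with 23% G. The bin 1 prey carries 1 copy and that of bin 18 none, each with 26% G. These preys were picked by AGCT copies and not by G content, which averaged 31.9% over the deletional preys of bin 8.

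AGCT, which reads the same on both strands, was searched for in the first 50 prey bases of joins with at least 50 aligned prey bases. It was present in 695 of 1521 preys of the span (45.7%), in 56.5% at Sα and in 23.7% on other chromosomes. These values pool all clones, and the genotypes contribute unlike parts of the preys in each region. Means over clones were 53.1% in the span and 56.9% at Sα, as tested below. In the pooled preys AGCT was in 67.7% in bin 9 and 58.1% in bin 8, in 38.2% in bin 1 and in 24.9% in bin 18, the last close to the pooled value on other chromosomes. Bin 5, at 114529501 to 114534500 and named after its values were seen, had the highest share, 85.7% of 98 preys. The G content of deletional preys followed a like course, with 35.3% in bin 9, 35.8% in bin 5, 31.9% in bin 8, 26.1% in bin 1 and 22.6% in bin 18.

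**Figure D5:**
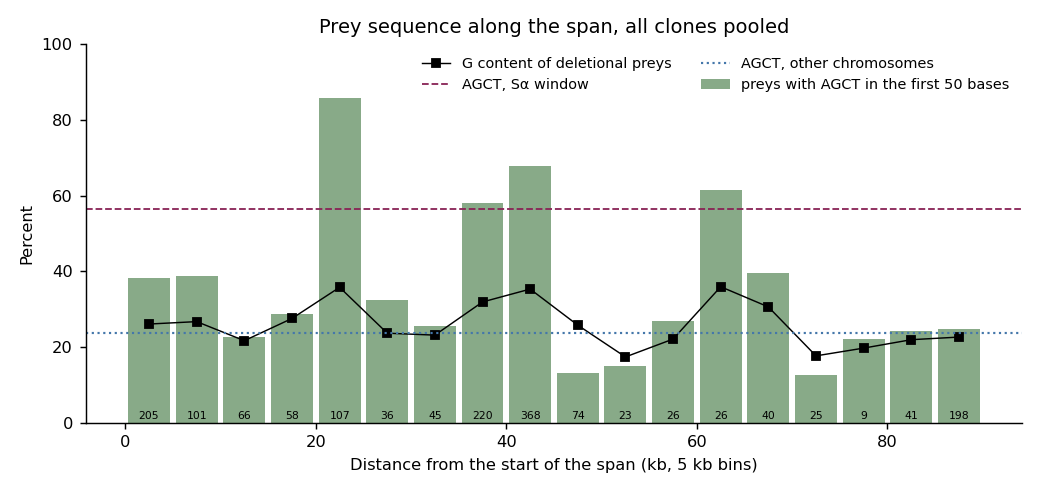
Share of preys with AGCT in their first 50 bases (bars, %) and G content of deletional preys (squares, %) by 5 kb bin, all clones pooled, against distance from the Sα side of the span (kb); the number in each bar is the bin's junctions. Lines give the pooled AGCT share at Sα (56.5%) and on other chromosomes (23.7%), and bins 5, 8, 9 and 13 exceed the Sα line. The mix of genotypes differs between bins and lines.

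The genotypes differed in this measure, which was chosen after the data were seen. AGCT was in 78.9% (15 of 19) and 75.0% (15 of 20) of span preys in the PAXX-/- clones, 43.9% and 46.1% for XLF-/-, 38.3% and 44.8% for XLF-/-PAXX-/-, 48.2% and 36.4% for Ligase4-/-, and 66.0% (33 of 50) in WT. Exact 95% binomial intervals were 54.4% to 93.9% and 50.9% to 91.3% in the PAXX-/- clones and 51.2% to 78.8% in WT. Each overlaps the 36.2% to 56.2% of XLF-/- clone 2. PAXX-/- and WT were above every clone of the other genotypes, and 95.1% of the sum of squares lay between genotypes (exact test over 945 splits, p = 0.0222, adjusted p = 0.0310 over 4 tests). That call was lost with trimmed ends (91.8%, exact permutation adjusted p = 0.0564) and without any 1 whole clone other than a Ligase4-/- clone (92.8% to 96.0%, lowest adjusted p = 0.0762). Sα preys differed between genotypes as well (93.1%, exact permutation p = 0.0233, adjusted p = 0.0310), a call lost without the same 7 clones (87.4% to 93.5%). Between span and Sα the mean over clones was 53.1% and 56.9% and did not pass the test (-3.82, -10.6 to 4.35, exact permutation p = 0.281), nor was it called with trimmed ends (-1.05) or without PAXX-/- clone 1 (-6.02) or 2 (-5.88). The span exceeded other chromosomes, at 53.1% and 23.9%, in 9 of 9 clones (29.2 points, 17.2 to 42.2, exact permutation adjusted p = 0.0156).

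In each mutant genotype the pooled AGCT share was higher in bins 8 and 9 than in the other bins. In WT it was alike in both parts, at 66.7% and 65.0%. Within bins 8 and 9, AGCT was in 27 of 29 PAXX-/- preys, 47 of 66 in XLF-/-, 75 of 121 in XLF-/-PAXX-/-, 184 of 304 in Ligase4-/- and 20 of 30 in WT. In the other 16 bins it was in 3 of 10 PAXX-/- preys, 34.9% in XLF-/-, 33.1% in XLF-/-PAXX-/-, 35.4% in Ligase4-/- and 13 of 20 in WT. How far the difference between genotypes rests on where joins lay was not tested.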

How the data were processed

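LAM-HTGTS junctions of 27 libraries, 3 from each of 9 CH12F3 clones, were analysed. The authors used Bowtie2 and mm9, per the submitters' processing notes; no version or filter is given in the sources used here. Tables deposited by the authors list 1 junction per line with genome positions, strand and the places of bait and prey on the read, and pool the libraries of a clone. They name libraries without replicate numbers, so libraries are numbered by name only.

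Overlap was the last bait base minus the first prey base on the read plus 1; above 0 was counted as microhomology, 0 as direct and below 0 as an insertion. The bait aligned at 114664780 to 114664913 on chromosome 12. The Sα window was 20 kb around the densest 1 kb at least 50 kb from it. Bins needed at least 20 junctions.

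Clones were compared by exact permutation of the sum of squares between genotypes (945 splits), libraries by the mean difference, permuted exactly and two-sided, and regions within clones by exact two-sided sign flips (512). Intervals invert these tests. Families of 6, 7, 10 and 40 tests were adjusted by Benjamini-Hochberg and called under 0.05. Bins were named by the 4 highest mean shares over clones, and printed joins by longest microhomology or insertion, or lowest coordinate. Clones are not fully independent, since the double mutants come from a PAXX-/- clone. Libraries held 3610 to 14524 junctions, 2691 to 10488 of them outside the bait window.

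The members, tests and lists were chosen with earlier results of these data known. AGCT was added after the data were seen, first over all preys, then over preys of at least 50 aligned bases, with the same calls. It left out 8.81% of preys in the span, 9.25% at Sα and 27.5% on other chromosomes. Alternatives covered repeated lines, long gaps, the ends of the span, denominators, library means, microhomology of at least 2 bases, bin placement and minimum, and each library and clone. The tests were tried on simulated data with bins denser than those seen here, so their power on these data is not known. Python 3.11.15, numpy 2.4.6, pandas 2.3.3, scipy 1.17.1 and matplotlib were used.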

Additional observations from a re-analysis of the deposited data

How the results depend on the processing

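Over 28 results, 110 of 124 values under other settings and 782 of 864 values with a library or clone left out kept their side of the threshold. All of these kept their direction except 1, the insertion share against other chromosomes without gaps over 20 bases (6.21, not called), and 0 called differences reversed. With 5 kb trimmed from each end of the span, calls were lost for the genotype test of the span share (84.7%), for XLF-/- (0.199), XLF-/-PAXX-/- (0.383) and Ligase4-/- (0.835) minus WT, for XLF-/-PAXX-/- minus Ligase4-/- (-0.452), for microhomology length against Sα (0.197) and for AGCT between genotypes (91.8%). With clones as the mean of their libraries, the direct share was -0.520 against Sα and -6.09 against other chromosomes, and microhomology length 0.246 against Sα, all lost, and the microhomology share was 4.53 against Sα and remained called. Without gaps over 20 bases the microhomology difference from other chromosomes was 6.77 and lost, and 1 bin of the span was called in place of 0. With repeated lines counted once the insertion difference from other chromosomes was -10.7 and gained a call, and with at least 2 shared bases the microhomology share gained one between genotypes (96.3%). With all junctions as the denominator, XLF-/- minus WT was 0.248 and XLF-/-PAXX-/- minus WT 0.426, both called. The cause was not tested.

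With each library or clone left out, values ranged as follows. For genotypes, the span share was 89.5% to 97.5%, the deletional share 69.1% to 91.8%, the direct share 2.63% to 99.6%, the microhomology share 16.9% to 98.7%, the insertion share 4.81% to 98.2%, microhomology length 47.2% to 92.4%, AGCT 92.8% to 98.4% in the span and 87.4% to 98.7% at Sα, and the bins called 0 to 2. For pairs, PAXX-/- minus WT was -0.482 to -0.425, XLF-/- minus WT 0.358 to 0.453, XLF-/-PAXX-/- minus WT 0.485 to 0.880, Ligase4-/- minus WT 0.983 to 1.58, XLF-/-PAXX-/- minus XLF-/- 0.0816 to 0.477, and XLF-/-PAXX-/- minus Ligase4-/- -0.898 to -0.300. For the span against Sα, the microhomology share was 4.91 to 8.65, the direct share -4.93 to -1.97, the insertion share -6.18 to -1.89 and microhomology length 0.210 to 0.321. For the insertion share against other chromosomes it was -14.0 to -8.68. Fewer clones also mean fewer splits.

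No paired analysis was possible because the tables name libraries without the replicate numbers of the labels, which concerns pairing by that number only. Regions were compared within clones, and XLF-/- minus PAXX-/- permuted within sequencing run was called (0.857, exact permutation adjusted p = 0.0208). Precision is limited by the joins read, 21 and 22 in the PAXX-/- clones and 53 in WT, and by WT being 1 line. The sequencing run cannot be told apart from genotype outside XLF-/- against PAXX-/-.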

Other observations

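Bins 13 and 14, at 114569501 to 114579500 and singled out after their values were seen, held 10 of the 53 WT joins, against 2 of 43 in PAXX-/-, 5 of 261 in XLF-/-, 18 of 440 in XLF-/-PAXX-/- and 31 of 871 in Ligase4-/-. Per 10000 junctions outside the bait window, bin 14 held 0 and 1.90 in the PAXX-/- clones, 2.27 and 1.03 for XLF-/-, 2.57 and 3.69 for XLF-/-PAXX-/-, 5.10 and 2.02 for Ligase4-/-, and 8.07 in WT. The genotype test of bin 14 did not pass (exact permutation p = 0.0878, adjusted p = 0.146), nor did that of bin 13 (exact permutation p = 0.197, adjusted p = 0.239). AGCT was in 61.5% of the preys of bin 13 and 39.5% of those of bin 14. No library of a genotype with 6 libraries stood apart from the others in the span share by Dixon's test, and WT, with 3, was not tested.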
